A study of Homo sapiens with 8 samples.

Results

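The 10 genes described here encode acute-phase, complement and antimicrobial proteins that epithelium makes, together with the membrane protein gene PDZK1IP1, among the 52576 genes of the deposited table. They were chosen by name: LCN2, S100A8, S100A9, SAA1, SAA2, C3, CFB, SLPI, PI3 and PDZK1IP1. The choice was made with earlier results of the same libraries known, in which PDZK1IP1, LCN2 and SAA1 stood high with the e3 guides against the controls and PDZK1IP1 was near 0 in cells without a guide. Levels of the 10 genes, and their differences in those contrasts, are therefore given as a description. For these 3 genes that holds for every contrast of the same libraries. All cells were NCI-H2009, an established human lung adenocarcinoma line, and all carried dCas9-KRAB, a nuclease-dead Cas9 fused to a domain that recruits chromatin repressors. Cells of 1 group received guide RNA e3 #1 and those of another e3 #2 (guide 1 and guide 2 below), each directed at an enhancer called e3 that is studied for its link to MYC. The controls received a guide RNA without a human target, or no guide RNA at all. Each of the 4 groups had 2 poly(A) RNA libraries, and the labels do not say that these came from separate cultures, so p-values measure the spread between libraries, which may be technical.

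Of the 10 genes, 8 were above 0 in at least 1 library and 7 had a mean of at least 1 RPKM (reads per kilobase of gene model, scaled to the depth of the library), the level required for a test. PI3 and S100A8 were listed at 0 in every library, and SLPI rested on 3 reads in all. Of the 7 genes, all but LCN2 passed the level filter through their levels in cells with a guide, so their counts are not support for a difference from cells without one.

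Epithelial cells exposed to microbes or to cytokines such as interleukin-1, interleukin-17 and tumour necrosis factor switch on a set of secreted defence proteins. NF-kB, its co-activator NFKBIZ, STAT3 and the C/EBP factors are among the known inducers of these genes. Some of the products withhold iron or zinc from bacteria, some belong to the complement cascade, and others block the proteases of neutrophils. In the liver the serum amyloid A and complement genes are part of the acute-phase response, but lung and gut epithelium express them as well.

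The upstream sequences of 3 genes are shown because they hold a match to 1 of the 2 motifs searched. RefSeq (GRCh38.p14) promoters were at hand for 5 of the 10 genes: LCN2, S100A8, S100A9, CFB and PDZK1IP1. In the 250 bases before the start, 3 of the 5 held an NF-kB type motif (GGGA, any 3 bases, then TCC) on either strand, and 0 held the C/EBP type TTGCNNCAA. These letters occur in the same window of 4.31% and 1.62% of all 35116 promoters. That share is per promoter entry, while the count of 3 is per gene. S100A8 had several entries, none with a match, so the values are not on the same unit. The sequences are written 5′ to 3′ on the strand of the gene, with the matched bases in capitals, and where the run is 11 bases long the matches on both strands overlap. A match is a description of the letters and not a shown binding site.
LCN2 (chr9:128149203-128149452, plus strand): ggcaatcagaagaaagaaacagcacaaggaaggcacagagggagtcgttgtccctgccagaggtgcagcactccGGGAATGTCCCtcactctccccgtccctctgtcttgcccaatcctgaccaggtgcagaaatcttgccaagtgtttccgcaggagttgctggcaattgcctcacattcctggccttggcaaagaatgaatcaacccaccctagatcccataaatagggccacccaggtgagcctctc
PDZK1IP1 (chr1:47190037-47190286, minus strand): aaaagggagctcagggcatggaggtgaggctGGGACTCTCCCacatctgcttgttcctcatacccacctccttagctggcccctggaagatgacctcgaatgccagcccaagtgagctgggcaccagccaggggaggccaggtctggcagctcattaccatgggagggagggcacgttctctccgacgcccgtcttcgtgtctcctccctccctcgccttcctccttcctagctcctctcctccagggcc
CFB (chr6:31945845-31946094, plus strand): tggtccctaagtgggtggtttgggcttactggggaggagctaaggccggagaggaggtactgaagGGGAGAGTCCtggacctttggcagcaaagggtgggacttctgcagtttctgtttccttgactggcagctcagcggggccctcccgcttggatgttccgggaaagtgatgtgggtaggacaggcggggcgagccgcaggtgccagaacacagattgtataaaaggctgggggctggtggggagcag

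The inferred depth was 3875080 to 5754470 reads per library. Libraries of a group were close, with a chi-square per degree of freedom of 1.91 to 2.12 over genes with at least 10 reads, where counting noise alone gives 1 for independent reads. No pair held the same values. Reads of a pair may have been counted separately, which raises this value. It therefore cannot tell separate libraries from 1 library sequenced again. MYC stood at 42.4 and 43.4 RPKM in guide 1 libraries and at 36.3 and 36.2 RPKM in guide 2 libraries, against 88.9 and 90.1 RPKM with the non-targeting guide and 74.6 and 72.7 RPKM without a guide. All 8 epithelial markers examined, among them EPCAM and the keratins KRT7, KRT8, KRT18 and KRT19, were expressed in every group. Of 10 neutrophil and myeloid markers, CSF3R, FCGR3B, LST1 and TYROBP were at 0 in every library and CD68, a lysosomal gene, was the 1 marker with a mean of at least 1 RPKM. Of 7 hepatocyte markers, 5 were at 0 in every library, ALB, the albumin gene, among them, and the summed level of the list did not exceed 0.386 RPKM in any library. Squamous keratinocyte markers are given with the control libraries.

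LCN2 encodes lipocalin-2, a secreted protein that binds the iron-carrying siderophores of bacteria. It was the most abundant of the 10 genes per length of gene model. Its level was 381 and 372 RPKM in guide 1 libraries and 315 and 307 RPKM in guide 2 libraries, against 232 and 241 RPKM with the non-targeting guide and 15.3 and 12.8 RPKM without a guide. The 4 groups did not overlap and ran in that order, from guide 1 down to no guide. Between 111 and 3726 reads lay behind each value, so counting error was small beside the differences between groups.

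PDZK1IP1 encodes a small membrane protein of epithelial cells that binds PDZ domain proteins. It stood at 149 and 152 RPKM in guide 1 libraries and at 148 and 139 RPKM in guide 2 libraries, against 117 and 96.8 RPKM with the non-targeting guide and 0.593 and 1.15 RPKM without a guide. The pairs of libraries did not overlap, but the means of the e3 guides, 150.5 and 144 RPKM, differed by less than the libraries of guide 2 did. In the libraries without a guide the gene held 11 reads in all.

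The S100 proteins S100A8 and S100A9 form the zinc-binding complex calprotectin, which is best known from neutrophils. S100A9 was at 14.7 and 16.1 RPKM in guide 1 libraries and at 5.42 and 4.45 RPKM in guide 2 libraries, against 10.02 and 12.02 RPKM with the non-targeting guide and 0.739 and 0 RPKM without a guide. The order here was guide 1, non-targeting guide, guide 2, no guide, with no overlap between neighbours, and the values rested on 0 to 37 reads. Its partner S100A8, which lies near it on chromosome 1, was listed at 0 in all 8 libraries. With a GENCODE 29 exon length, 3 reads of S100A8 would have been 0.518 to 0.770 RPKM in a library, so a level under this could not be seen.

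SAA1 and SAA2 encode the serum amyloid A proteins, lipoprotein-bound proteins of the acute phase. SAA1 was at 26.7 and 31.4 RPKM in guide 1 libraries and at 26.6 and 24.4 RPKM in guide 2 libraries, against 35.3 and 26.6 RPKM with the non-targeting guide and 0 RPKM in both libraries without a guide. SAA2 was at 3.81 and 6.84 RPKM in guide 1 libraries and at 6.40 and 5.03 RPKM in guide 2 libraries, against 5.10 and 3.78 RPKM with the non-targeting guide and 0 and 0.213 RPKM without a guide. For both genes the libraries with the non-targeting guide lay among those with the e3 guides or overlapped them, and the groups with a guide had no clear order. SAA1 held 80 to 126 reads in each library with a guide, and SAA2 held 37 to 82.

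The levels of SAA1 and SAA2 are uncertain because the genes are close copies on chromosome 11. Their 369-base open reading frames in GENCODE 29 (GRCh38) differ at 11 positions, an identity of 97.0%, and share an unbroken run of 186 bases. Of the 11 positions, 8 fall within bases 229 to 288 of the frame, counted from its first base. That stretch is printed here because, within the frame, only reads across such positions can tell the copies apart. The gene models are longer, 765 bases for SAA1 and 2227 bases for SAA2, and their parts outside the frame were not compared. Differing bases are in capitals.
SAA1: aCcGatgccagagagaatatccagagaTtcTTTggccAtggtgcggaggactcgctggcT
SAA2: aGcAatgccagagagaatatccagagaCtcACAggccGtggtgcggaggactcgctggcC
The table also lists a readthrough gene, SAA2-SAA4, at 7.41 and 12.9 RPKM in guide 1 libraries and 14.5 and 12.2 RPKM in guide 2 libraries, against 13.3 and 8.20 RPKM with the non-targeting guide and 0 and 0.638 RPKM without a guide. It overlaps SAA2, and the way reads were assigned to overlapping genes is not given in the sources used here.

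C3 encodes the central complement protein, and CFB encodes factor B, the protease of the alternative pathway that acts on bound C3. C3 was at 5.02 and 3.28 RPKM in guide 1 libraries and at 5.17 and 4.60 RPKM in guide 2 libraries, against 4.37 and 3.99 RPKM with the non-targeting guide and 0.0764 and 0 RPKM without a guide. The 3 groups with a guide overlapped, and 71 to 166 reads lay behind each of their values.
CFB was at 3.98 and 4.92 RPKM in guide 1 libraries and at 5.42 and 6.47 RPKM in guide 2 libraries, against 1.86 and 4.01 RPKM with the non-targeting guide and 0 and 1.23 RPKM without a guide. The groups of the e3 guides did not overlap each other, while the higher library of the non-targeting guide lay just above the lower one of guide 1. CFB rested on at most 18 reads in a library. Its values fit a gene model of 577 bases, against an exon union of 4997 bases in GENCODE 29, so they cover a small part of the gene.

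SLPI and PI3 encode antiproteases of the airway and skin that inhibit neutrophil elastase and lie on chromosome 20. SLPI was listed at 0 in 6 libraries. It held 2 reads (0.783 RPKM) in 1 library of guide 2 and 1 read (0.353 RPKM) in 1 library of the non-targeting guide. PI3 was listed at 0 in all 8 libraries, where 3 reads would have been 0.904 to 1.34 RPKM with a GENCODE 29 exon length. At this depth no level of PI3 was detectable, and levels below these limits could not be seen.

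**Figure D1:**
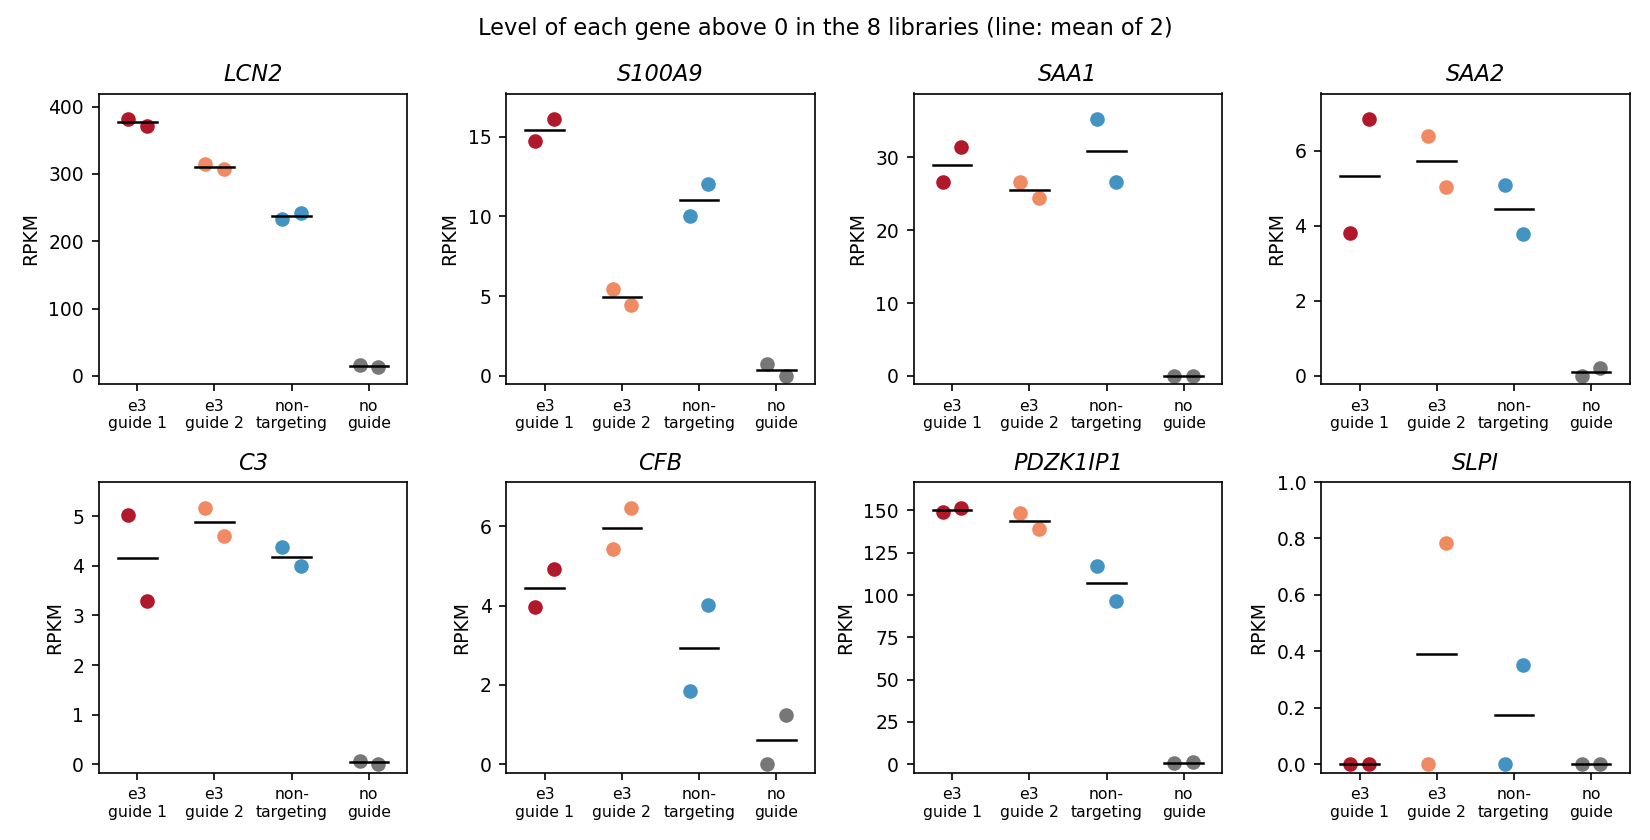
RPKM (vertical axes, linear) of the 8 genes above 0, with 1 point per library and a line at each group's mean (n = 2). LCN2, S100A9, SAA1, SAA2, C3, CFB and PDZK1IP1 are low without a guide and higher in every library with one, SLPI stays under 1 RPKM, and S100A9 is lower with guide 2 than with guide 1.

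Setting the non-targeting guide against no guide (the control contrast) asks what a guide RNA without a target, and its delivery, changed. For the 10 genes this pattern was known when they were chosen, so the values carry no test. PDZK1IP1 averaged 107 ± 14.4 RPKM with the non-targeting guide and 0.873 ± 0.397 RPKM without a guide (SD, n = 2 each), a log2 difference of 5.86, which ranked 1 from the top among 13979 genes tested on the log2(RPKM + 1) scale. SAA1 ranked 3 with 4.98, LCN2 ranked 7 with 3.99 and S100A9 ranked 13 with 3.18. C3 and SAA2 followed at ranks 23 and 24, with 2.32 and 2.29, and CFB at rank 125 with 1.34.
Every library with a guide, targeted or not, lay above both libraries without one in 7 of the 10 genes, and in 12.5% of all genes tested. Since the genes were chosen with this in view, nothing is read from that count. The log2 scale with a pseudocount of 1 understates differences of low genes, and for genes at 0 in both libraries without a guide (SAA1 here, SAA4, DEFB4A and CCL20 in the lists) the value depends on the pseudocount. From the reads, SAA1 was at least 70.3-fold higher with the non-targeting guide than a level of 3 reads over both libraries without a guide, which is 0.440 RPKM. The ratio of reads per depth was 125 for PDZK1IP1 (95% interval 69.4 to 250.02, exact binomial), 104 for C3 (28.4 to 864) and 16.8 for LCN2 (14.8 to 19.1). It was 44.0 for SAA2 (11.8 to 368), 28.4 for S100A9 (7.52 to 240) and 5.04 for CFB (1.44 to 27.0), each with 2 or 3 reads in all without a guide. These intervals cover counting error only, and reads of a pair may have been counted separately.

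**Figure D2:**
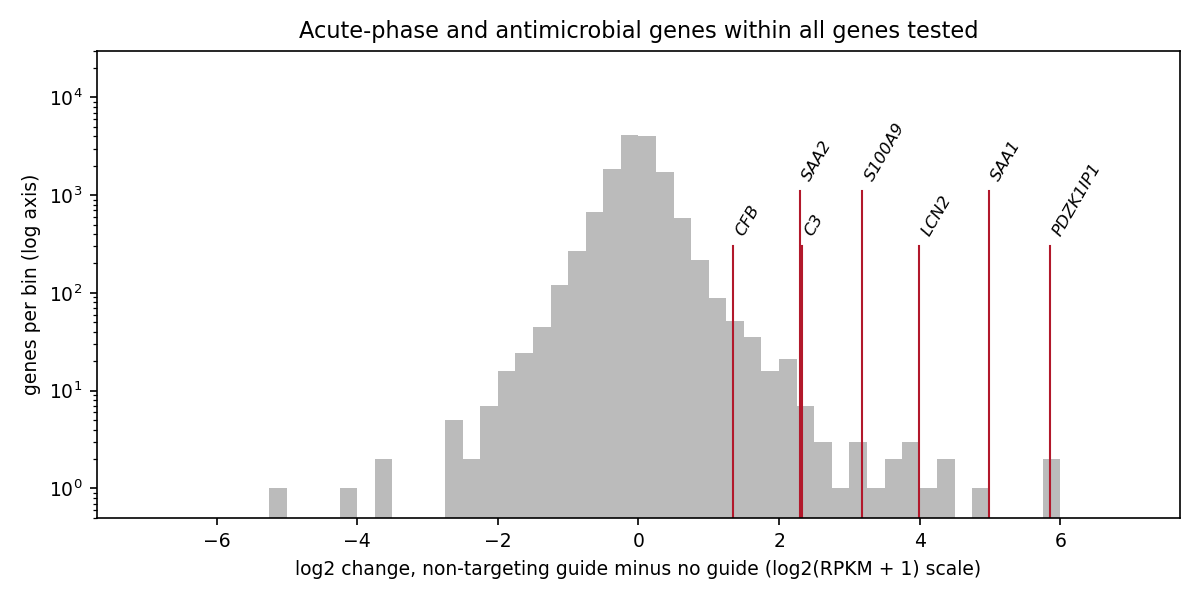
Distribution of the log2 difference, non-targeting guide minus no guide, over the 13979 genes tested (grey bars, 0.25 wide, log axis of gene numbers), with red lines at 7 of the acute-phase and antimicrobial genes. The lines run from 1.34 for CFB to 5.86 for PDZK1IP1, right of the bulk of genes around 0.

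Other measures differed between the same groups. The summed level of 7 squamous keratinocyte markers was 40.2 to 48.7 RPKM in guide 1 libraries, 31.0 to 36.4 RPKM in guide 2 libraries and 19.97 to 20.8 RPKM with the non-targeting guide, against 139 to 142 RPKM without a guide. KRT13 set the high sum without a guide, at 8.95 to 21.8 RPKM in libraries with a guide, against 129.5 to 133.7 RPKM without one. KRT6A went the other way, at 9.82 to 24.2 RPKM in libraries with a guide, against 6.98 to 7.56 RPKM without one. Between guide 2 and the non-targeting guide KRT6A differed more, at 19.9 and 20.9 RPKM against 9.82 and 10.0 RPKM. KRT13 was at 9.02 and 12.5 RPKM with guide 2 and at 8.95 and 9.32 RPKM with the non-targeting guide. KRT5 stayed under 1 RPKM and was at 0 in both libraries without a guide, IVL stayed under 1 RPKM too, and SPRR1B was at 0 throughout. The summed myeloid list was 29.9 to 32.1 RPKM in guide 1 libraries, 28.8 to 31.8 RPKM in guide 2 libraries and 22.1 to 24.2 RPKM with the non-targeting guide, against 12.3 to 14.3 RPKM without a guide, and nearly all of it was CD68. The summed surfactant and airway list was 28.7 to 32.4 RPKM in guide 1 libraries, 24.8 to 26.3 RPKM in guide 2 libraries and 23.8 to 29.9 RPKM with the non-targeting guide, against 42.6 to 43.5 RPKM without a guide, and nearly all of it was the lung lineage factor gene NKX2-1, while SCGB1A1, SCGB3A1 and SFTPC were at 0. The part of these changes in the results was not tested. In RNA from bulk cells, more cells that express a gene and more RNA of it per cell cannot be told apart, and neither can a guide RNA and its delivery.

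Setting both e3 guides against the non-targeting guide (the e3 contrast) asks what directing the repressor to e3 changed, with a guide RNA present on both sides. The fit takes the 4 e3 libraries, 2 for each guide, as 1 group against 2 libraries. Its p-values thus treat libraries of different guides as replicates, and its calls depend on the 2 non-targeting libraries. All 6 of its libraries were also part of the contrast of the e3 guides with all controls, in which PDZK1IP1, LCN2 and SAA1 were noticed, so these 3 genes get no test here. The 4 other genes measured well enough were S100A9, SAA2, C3 and CFB. They too were chosen with results of these libraries known, so their p-values here and below are not free of that choice. Of these 4, 0 passed in limma on log2(RPKM + 1) (Benjamini-Hochberg adjusted p under 0.05). Over all 13979 genes tested, 3.3% rose and 3.54% fell at that threshold.
LCN2 averaged 344 ± 38.3 RPKM with the e3 guides (SD, n = 4) and 237 ± 6.31 RPKM with the non-targeting guide (SD, n = 2), a log2 difference of 0.53 ± 0.09 (SE). PDZK1IP1 averaged 147 ± 5.55 RPKM with the e3 guides (SD, n = 4) and 107 ± 14.4 RPKM with the non-targeting guide (SD, n = 2), a log2 difference of 0.46 ± 0.08 (SE). All 4 e3 libraries lay above both libraries of the non-targeting guide for these 2 genes, as they did for 16% of genes tested, and nothing is read from that. SAA1 had -0.17 (95% interval -0.47 to 0.13).

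The 4 genes tested had changes that did not pass, with intervals that leave room for differences either way for 3 of them. CFB had the largest, 0.70 ± 0.25 (95% interval 0.13 to 1.27, limma adjusted p = 0.147), on few reads. SAA2 had 0.25 (interval -0.25 to 0.75), C3 0.08 (-0.32 to 0.48) and S100A9 -0.28 (-1.36 to 0.80). S100A9 had the widest interval, with its guide 1 libraries above and its guide 2 libraries below those of the non-targeting guide. The median over the 7 genes was 0.25, beside 0.00 over all genes tested. It includes the 3 genes noticed earlier, so nothing is read from it.

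Taken singly against the non-targeting guide, LCN2 had a log2 difference of 0.67 ± 0.08 (SE) with guide 1 and of 0.39 ± 0.08 with guide 2, and PDZK1IP1 had 0.50 and 0.43, all given as a description. S100A9 fell by 1.02 ± 0.25 with guide 2 (limma adjusted p = 0.0446), to 4.93 ± 0.689 RPKM in guide 2 libraries, against 11.02 ± 1.42 RPKM with the non-targeting guide (SD, n = 2 each). With guide 1 it stood at 15.4 ± 0.982 RPKM (SD, n = 2), a change of 0.45 that did not pass (adjusted p = 0.381). Of the 4 genes tested, 0 passed in limma with guide 1, beside 2.32% of all genes that rose and 2.45% that fell at the same threshold. With guide 2, 1 of the 4 passed, S100A9, beside 4.03% and 5.32%. S100A9 was chosen with results of these libraries known, so its call is not independent support.
The call for S100A9 with guide 2 was lost without any single e3 library or library of the non-targeting guide (adjusted p 0.0687 to 0.205), with a pseudocount of 0.1 (adjusted p = 0.462), without a filter (0.114) and with the replicate number as a block (0.0592).

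**Figure D3:**
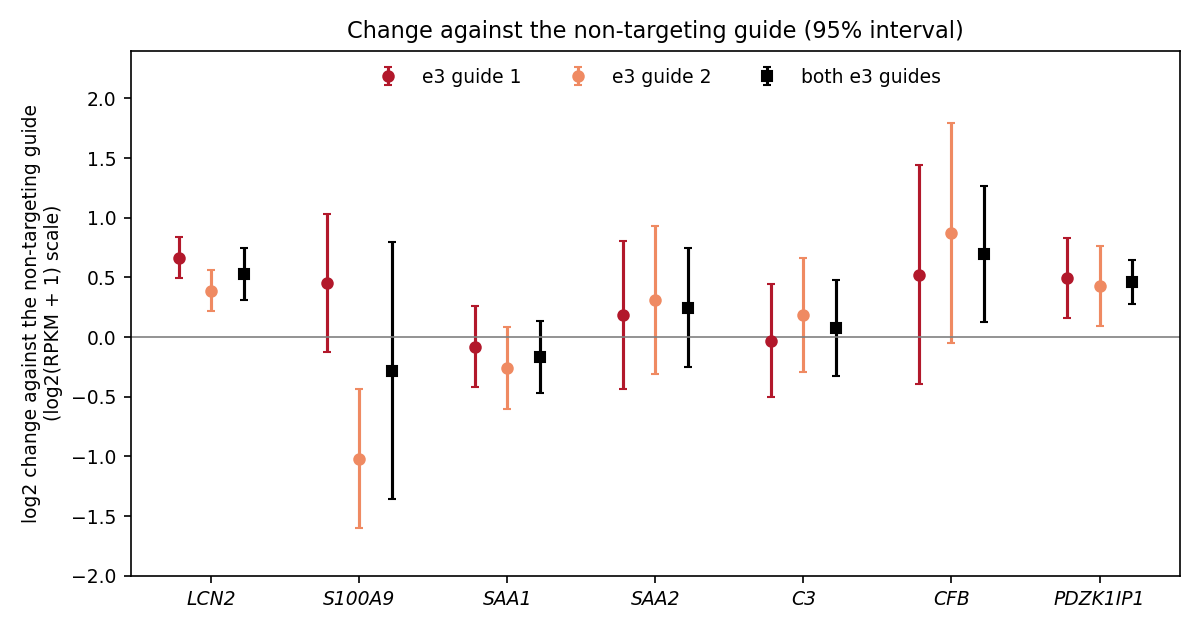
Change against the non-targeting guide on the log2(RPKM + 1) scale for the 7 genes with a fit, with guide 1, guide 2 and both e3 guides together. Points are limma estimates and bars 95% intervals. PDZK1IP1, LCN2 and SAA1 were noticed earlier in these libraries, so their points and bars are a description and not a test. LCN2 and PDZK1IP1 lie above 0 with each guide, and S100A9 lies at 0.45 with guide 1 and at -1.02 with guide 2.

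Guide 2 against guide 1 asks whether the guides to e3 differ in their effect. Of the 4 genes tested, S100A9, SAA2, C3 and CFB, 0 passed in limma and 1, S100A9, had an unadjusted p under 0.05. Over all genes tested, 4 (0.0286%) passed and 1451 had an unadjusted p under 0.05. S100A9 had the widest difference of the 7 genes with a fit, -1.47 ± 0.25 (95% interval -2.05 to -0.89, limma adjusted p = 0.0976). It ranked 13967 of 13979 from the top. LCN2 had -0.28 (interval -0.45 to -0.10), but it had been noticed for guide 1, so this is a description. PDZK1IP1 had -0.07 (-0.40 to 0.26), SAA1 -0.18 (-0.52 to 0.16), SAA2 0.12 (-0.50 to 0.74), C3 0.21 (-0.27 to 0.69) and CFB 0.35 (-0.57 to 1.27). For none of these does the interval show that the guides act alike.

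In the contrast in which the genes were noticed, the e3 guides against all 4 control libraries, the log2 differences were 3.39 for PDZK1IP1, 2.52 for LCN2, 2.32 for SAA1, 1.39 for SAA2, 1.37 for CFB, 1.31 for S100A9 and 1.24 for C3. Their standard errors were 0.41 to 1.34, since the controls themselves lay far apart. The e3 libraries lay above all 4 control libraries for LCN2 and PDZK1IP1 as for 7.58% of genes tested, but not for the other 5. Over all genes tested 2.63% rose and 2.58% fell here.

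Genes whose levels ran most like the 10 over the 8 libraries were sought by Pearson's r between log2(RPKM + 1) and the mean of the 7 standardized profiles, as a description. ZC3H12A, which encodes an RNase that degrades inflammatory mRNAs, and CD74, the invariant chain of MHC class II, had the highest r, 0.998 each. They were followed by the NF-kB inhibitors TNIP1 and NFKBIA, the lipid transfer protein gene PLTP and the signalling adaptor gene TANK, at 0.995 to 0.996. ZC3H12A was at 44.6 and 46.3 RPKM in guide 1 libraries and at 48.8 and 47.2 RPKM in guide 2 libraries, against 38.9 and 40.4 RPKM with the non-targeting guide and 3.08 and 4.16 RPKM without a guide.
For PDZK1IP1 alone the closest were ZC3H12A, CD74, the cytokine gene CSF2 and TNIP1 (0.996 to 0.999). For LCN2 alone they were COL17A1, the NF-kB family gene BCL3, EGR1 and KLC2 (0.994 to 0.996). With a pseudocount of 0.1, 2 of the 4 named for PDZK1IP1 and 3 of the 4 named for LCN2 stayed among the closest, as did 6 of 6 for the mean profile. The step between libraries without a guide and all others sets most of such a correlation, and 225 of 13972 other genes had an r over 0.95 to the mean profile. Among the 10 genes themselves, S100A9 (0.912) and CFB (0.883) were the least like it.

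Regulators of such genes differed most between the controls. Of 17 tested, 10 rose, 1 fell and 6 did not pass in the control contrast, beside 6.55% and 5.81% of all genes tested that rose and fell. The median log2 change was 0.84 (all genes -0.01). This list and those below were written with earlier results of these libraries known, so their counts and medians are a description. Listed genes near 0 without a guide passed the level filter through cells with one, so their rises in this contrast are no support. ZC3H12A rose to 39.7 ± 1.097 RPKM with the non-targeting guide, against 3.62 ± 0.760 RPKM without a guide (SD, n = 2 each, limma adjusted p = 3.74e-06), and the inhibitors NFKBIA and TNFAIP3 rose by 1.60 and 1.76. NFKBIZ, the co-activator that induces LCN2, rose by 1.46. The gene that fell, named here after its value was seen, was the epithelial factor gene ELF3 (-1.05).
Of the same 17 regulators 3 rose and 14 did not pass in the e3 contrast, beside 3.3% and 3.54% of all genes tested that rose and fell. NFKBIZ averaged 17.6 ± 0.663 RPKM with the e3 guides (SD, n = 4) and 11.1 ± 0.0742 RPKM with the non-targeting guide (SD, n = 2), a rise of 0.62 (limma adjusted p = 0.0074). SOCS3, a feedback inhibitor of STAT3, rose by 0.36 (adjusted p = 0.0161) and STAT3 by 0.24 (adjusted p = 0.0346). These calls take the libraries of both guides as 1 group. Taken singly, NFKBIZ and SOCS3 passed with each guide. STAT3 passed with guide 2 (limma adjusted p = 0.0259) but not with guide 1 (0.0519). The median of the list was 0.07 and that of all genes 0.00.

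Cytokines and receptors known to induce the genes moved in both directions. In the control contrast, 4 of 17 tested rose, 2 fell and 11 did not pass. LIF, a cytokine of the interleukin-6 family, rose by 1.26 and the shared receptor subunit gene IL6ST by 0.61, while the receptor genes IL6R and LIFR fell by 0.92 and 0.73. Of the 17, 1 rose in the e3 contrast, the tumour necrosis factor receptor gene TNFRSF1A (0.40, limma adjusted p = 0.0178). IL1R1 (0.65), OSMR (0.22) and IL17RA (0.32) did not pass.

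Few other acute-phase or antimicrobial genes were expressed. Of 19 acute-phase genes 5 were tested, and in the control contrast 2 rose and 2 fell. SERPINA1, the gene of the antiprotease alpha-1-antitrypsin, rose to 44.4 ± 0.521 RPKM with the non-targeting guide, against 9.70 ± 1.05 RPKM without a guide (SD, n = 2 each, limma adjusted p = 1.43e-05). SAA4, counted as a rise, had 1.80 on at most 9 reads in a library and was listed at 0 without a guide. It passed the level filter through cells with a guide, so this value is a description. The ferritin genes FTH1 and FTL, which have many processed pseudogenes, fell by 0.68 and 0.42. None of the 5 passed in the e3 contrast or with either guide alone in limma, and SAA4 had -0.70 for both guides together (adjusted p = 0.191).
Of 22 antimicrobial genes 3 were tested. DEFB4A, the gene of beta-defensin 2, which has a close copy that can share its reads, was at 10.9 and 12.2 RPKM in guide 1 libraries, at 18.7 and 6.14 RPKM in guide 2 libraries and at 5.63 and 7.74 RPKM with the non-targeting guide, and was listed at 0 in both libraries without a guide. It and the chemokine gene CCL20, also at 0 without a guide, had differences of 2.93 and 1.74 in the control contrast. Both passed the level filter through cells with a guide, so these values are a description. CCL28 did not pass there (0.20). None of the 3 passed in the e3 contrast (DEFB4A 0.68, CCL20 -0.46 and CCL28 0.18).

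The remaining S100 genes moved in both directions. Of 10 tested, 5 rose, 1 fell and 4 did not pass in the control contrast, among them S100A11 (0.77), S100A3 (1.67) and S100A16 (0.38), which rose, and S100A4 (-0.56), which fell. In the e3 contrast S100A6 rose by 0.24, S100A16 and S100A14 fell by 0.40 and 0.69, and 7 did not pass, S100A3 among them (-0.57). With guide 2 alone S100A4 fell by 0.65 (limma adjusted p = 0.00328), at 11.5 and 11.4 RPKM in guide 2 libraries, against 18.4 and 18.7 RPKM with the non-targeting guide. S100A14 averaged 42.0 ± 6.47 RPKM with the e3 guides (SD, n = 4) and 67.5 ± 1.47 RPKM with the non-targeting guide (SD, n = 2).

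Of 7 other complement genes tested, 0 rose, 2 fell and 5 did not pass in the control contrast in limma, CD59 (0.15) and CD46 (-0.11) among the 5. The genes that fell were CD55, which encodes a membrane protein that protects cells from complement (-0.72, adjusted p = 0.000929), and CFI, which encodes a protease that inactivates bound C3 (-0.75, adjusted p = 0.00315). In the e3 contrast CD55 rose by 0.41 (adjusted p = 0.0306) and CD59, another protective membrane protein gene, by 0.33 (adjusted p = 0.0268). The remaining 5 did not pass, CD46 (0.28) and CFI (0.54) among them, while CFI rose by 0.74 with guide 1 alone (adjusted p = 0.00898).

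Of 10 antiprotease genes tested besides SLPI and PI3, SPINT1, which encodes an inhibitor of epithelial serine proteases, rose by 0.36 in the e3 contrast (limma adjusted p = 0.00871) and 9 did not pass, among them WFDC2 (0.30), SERPINB1 (-0.23) and SPINT2 (0.14). In the control contrast WFDC2, a relative of SLPI, rose by 0.62, SERPINE2 fell by 0.37 and 8 did not pass. MMP9, whose product forms a complex with lipocalin-2, had a log2 difference of 4.28 in the control contrast. It was noticed earlier and passed the level filter through cells with a guide, so this is a description. Of 4 tested genes for receptors and partners of the proteins, the 3 besides MMP9 did not pass there. MMP9 was at 20.2 and 20.9 RPKM in guide 1 libraries and at 46.2 and 45.3 RPKM in guide 2 libraries, against 26.3 and 22.7 RPKM with the non-targeting guide and 0.250 and 0.371 RPKM without a guide. Its log2 difference was 1.12 for guide 2 against guide 1, given as a description since MMP9 had been noticed for guide 2 earlier, and 0 other genes of the lists passed there in limma. In the e3 contrast MMP9 had 0.32, also a description. None of the 3 others passed there in limma (SCARB1 -0.51), though with guide 2 alone SCARB1 fell by 0.69.

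**Figure D4:**
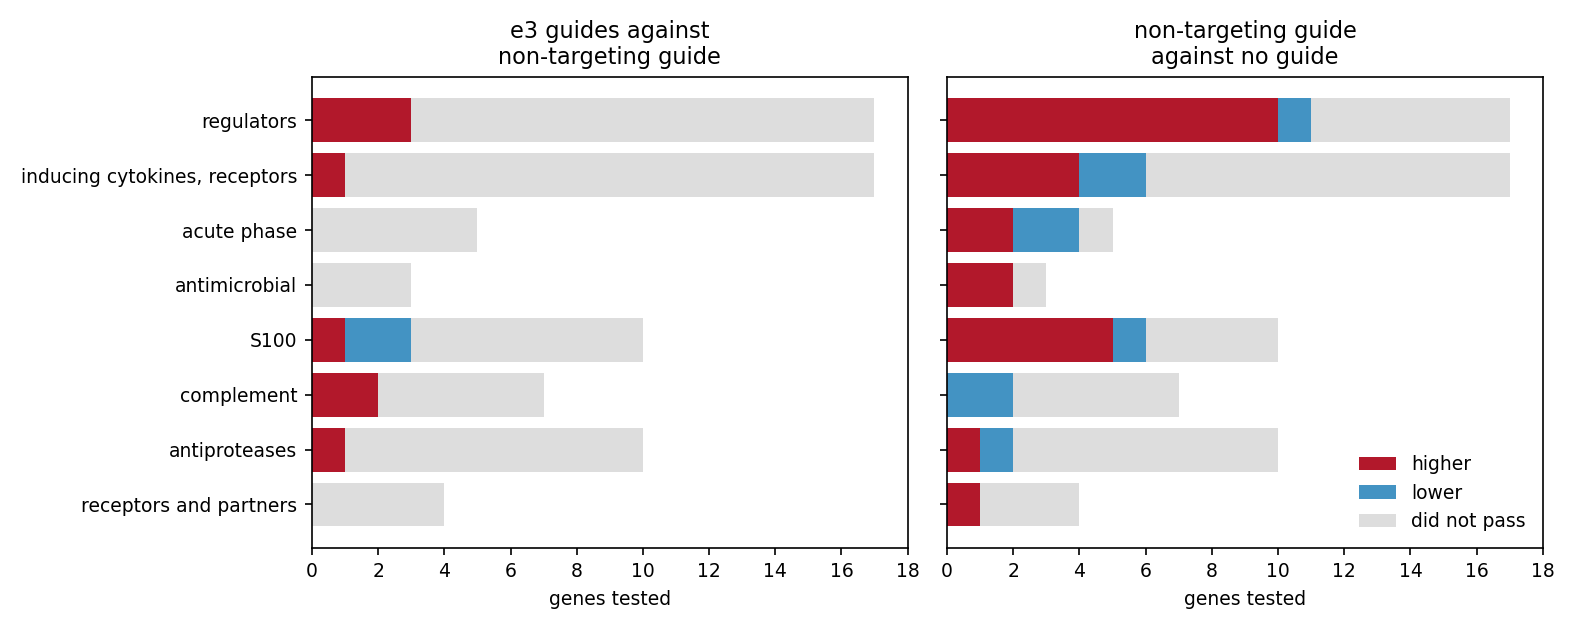
Numbers of tested genes that were higher (red), lower (blue) or did not pass (grey) in 8 lists of related genes, for the e3 contrast and the control contrast. Of the 17 regulators, 3 were higher in the first contrast and 10 in the second, beside 3.3% and 6.55% of all genes tested. SAA4, DEFB4A and CCL20, at 0 without a guide, passed the level filter through cells with a guide and are counted as higher in the second. The lists were written with earlier results known, and MMP9, noticed earlier, is counted among the receptors and partners.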

How the data were processed

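RNA was measured in 8 poly(A) libraries, and the authors deposited 1 table of RPKM values with a column per library. Per the submitters' processing notes, hg19 and Cufflinks were used, while aligner, counting, strand setting and annotation are not given in the sources used here. The columns were matched to samples by name, and 0 columns were left unused. Read depth was worked out from the step size of low RPKM values, with GENCODE 29 exon lengths (another build). In 13978 of the 13979 genes tested (99.99%) all values were then whole reads to within 0.03 reads. No count test was run on them.

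Genes averaging 1 RPKM or more across all 8 libraries entered the tests. On the scale log2(RPKM + 1), limma 3.58.1 (R 4.3.3) gave two-sided p-values with a trended prior variance, adjusted after Benjamini and Hochberg over all genes tested. The e3 contrast (both e3 guides against the non-targeting one) used 6 libraries in 2 groups. Single guides and the controls against each other used 1 model with 4 groups, and the e3 guides against all controls used 8 libraries in 2 groups. The fits were tried on simulated data. The genes, lists and motifs were chosen with earlier results of these data known. Up to 4 genes per list were named by smallest p in each of 2 contrasts, with any further ones marked. Alternatives changed the pseudocount, filter, scaling, model, block and libraries.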

Additional observations from a re-analysis of the deposited data

Results flagged for a closer look

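SLPI was the 1 gene of the 10 for which a single library stood apart among the 4 libraries with an e3 guide. The gap of that library to the next, divided by the range of the 4, was 1, because it held 2 reads (0.783 RPKM) and the other 3 were listed at 0. The measure is 1 whenever only 1 of the 4 libraries is above 0, and with so few reads the gap lies within counting error.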

How the results depend on the processing

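Counts of genes called moved with the settings. In the e3 contrast 956 became 379 without a filter and 597 with the replicate block. For guide 1 against the non-targeting guide 667 became 409 without a filter. For guide 2 against guide 1, 4 became 9 without a filter, 24 at a minimum mean of 5 RPKM, 9 with median-ratio scaling, 13 with quantile normalization and 1 with the replicate block. For the e3 guides against all controls 727 became 406 without a filter, 387 with the replicate block, 2422 in the model with 4 groups and 256 when the correlation within groups was estimated, a setting added after seeing the data. The same-numbered libraries did not deviate together (r from -0.02 to 0.01), so the numbers do not pair them.

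Counted over all 10 genes, those noticed earlier included, and so as a description, 2 lay past the threshold in the e3 contrast, 0 without a filter and 1 (LCN2) in the model with 4 groups. In the main fit 3.3% of all genes tested rose there and 3.54% fell. For guide 2 against the non-targeting guide 2 lay past it, beside 4.03% of all genes tested that rose and 5.32% that fell. That became 1 with a pseudocount of 0.1, 1 with the replicate block (S100A9 was lost, limma adjusted p = 0.0592) and 0 without a filter.

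Leaving out 1 library at a time gave 6 to 962 calls in the e3 contrast (6 and 17 without the first and second non-targeting library), 144 to 607 for guide 1 and 490 to 1212 for guide 2 against it, 0 to 4 between the guides, 870 to 1560 between the controls and 186 to 581 against all controls. Of the 10 genes, 0 to 2, 1 to 2, 0 to 3 and 0 to 0 lay past the threshold in the first 4.

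Signs turned only for changes that did not pass, each when 1 library was left out. In the e3 contrast S100A9 ran from -0.55 to 0.0019 and SAA1 from -0.37 to 0.026. For guide 1 against the non-targeting guide SAA1 ran from -0.28 to 0.11, SAA2 from -0.17 to 0.54 and C3 from -0.27 to 0.22. For guide 2 against guide 1 SAA2 ran from -0.23 to 0.47 and C3 from -0.034 to 0.46. The cause was not tested, though each such fit has fewer libraries. Levels with few reads (CFB, S100A9, SAA4) are limited by depth.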
